A study of Mus musculus with 18 samples.

Results

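Organic ion and ABC transporter genes were taken as the protein-coding RefSeq genes (assembly GRCm38.p6) of 10 symbol families: Slc22a, Slco, Slc47a, Slc10a, Slc13a, Abca, Abcb, Abcc, Abcd and Abcg. The rule found 99 genes among 21883 protein-coding genes, 53 of them in the solute carrier families and 46 in the ABC families. A BMAL1 peak was placed at a gene when its centre lay inside the gene or within 10 kb of either end. At the 99 genes this gave 37 of 4813 liver peaks, 28 of 4034 kidney peaks and 10 of 2519 heart peaks. Symbols chose the genes, but the families were picked with earlier results of these data known.

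BMAL1 is the clock transcription factor that pairs with CLOCK and binds DNA elements called E-boxes. ChIP-seq, in which DNA bound by a protein is pulled down with an antibody and sequenced, gave its binding sites in 3 tissues of wild type C57BL/6 mice aged 3 to 6 months: liver, kidney and heart. All groups were kept in 12 h of light and 12 h of dark and were sampled at ZT06, 6 h into the light phase. Each tissue had 3 ChIP and 3 input libraries, from 3 mice that gave all tissues. The authors merged all libraries of a tissue into 1 peak list, so no value below has an error between animals and no difference between tissues could be tested. The depth behind each list is unknown, and lists of unequal depth or enrichment can differ in their weak peaks. For the 3 input libraries titled as heart, the source label gives kidney; no input value was used here, but the heart list rests on these libraries. Peak lists hold no expression, so the labelled tissues could not be set against marker levels. A score from the authors accompanies each peak and was read only as a rank within its list.

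The solute carriers of these families move organic cations, organic anions, bile acids, sulfate and dicarboxylates across the cell membrane. ABC transporters use ATP to export lipids, drugs and conjugates, and some sit in mitochondria, peroxisomes or lysosomes. Liver and kidney rely on both groups to clear bile constituents and xenobiotics, while in heart the sulfonylurea receptors of the Abcc family are subunits of potassium channels.

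The sequences under the peaks at gene starts were read first, because the E-box CACGTG is the element BMAL1 is known for. RefSeq promoter windows (GRCm38.p6; 250 bases before to 50 after a listed start) were found for 78 of the 99 genes. Of the 61 merged regions bound near transporter genes, 12 shared bases with a promoter window, 8 of them with the window of a transporter gene. CACGTG, a palindrome that reads the same on both strands, lay in the shared bases of 4 regions, at Abca1, Abca8b, Abcc4 and beside Slc10a3. These 4 sites are shown with Slc22a4, whose motif lay just beyond its peak, and with Abcc2, whose start was bound in liver and kidney without this motif. Each is printed 5′ to 3′ on the gene's strand, and capitals mark CACGTG. The stretches of Abca1, Abcc4, Gm44504 and Abcc2 are the bases before the start that the region and the window share, Slc22a4 is given as all 250 bases before its start, and Abca8b as 30 bases around a motif just after its start.
Abca1, chr4:53159896-53160124, minus strand: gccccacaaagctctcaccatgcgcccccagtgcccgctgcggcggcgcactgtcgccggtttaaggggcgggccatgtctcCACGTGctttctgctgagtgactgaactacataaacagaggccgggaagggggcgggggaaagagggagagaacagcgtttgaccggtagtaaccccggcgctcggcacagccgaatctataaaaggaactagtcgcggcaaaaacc
Abcc4, chr14:118706259-118706446, minus strand: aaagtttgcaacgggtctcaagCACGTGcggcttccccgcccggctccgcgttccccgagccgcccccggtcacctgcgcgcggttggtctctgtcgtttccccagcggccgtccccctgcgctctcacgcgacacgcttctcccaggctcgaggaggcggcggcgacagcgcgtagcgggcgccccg
Gm44504, start next to Slc10a3, chrX:74373350-74373514, minus strand: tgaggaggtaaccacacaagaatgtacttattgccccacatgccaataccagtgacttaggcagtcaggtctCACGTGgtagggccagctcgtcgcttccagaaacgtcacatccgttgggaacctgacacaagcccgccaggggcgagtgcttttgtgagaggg
Abca8b, chr11:109995810-109995839, minus strand: gccatgcgcggtCACGTGtccgtggtgttt
Slc22a4, chr11:54028105-54028354, minus strand: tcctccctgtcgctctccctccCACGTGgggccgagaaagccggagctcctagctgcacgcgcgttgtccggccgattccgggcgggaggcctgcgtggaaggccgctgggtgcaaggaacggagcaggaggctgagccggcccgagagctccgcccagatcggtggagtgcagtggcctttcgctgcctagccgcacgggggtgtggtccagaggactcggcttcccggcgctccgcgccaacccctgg
Abcc2, chr19:43782067-43782307, plus strand: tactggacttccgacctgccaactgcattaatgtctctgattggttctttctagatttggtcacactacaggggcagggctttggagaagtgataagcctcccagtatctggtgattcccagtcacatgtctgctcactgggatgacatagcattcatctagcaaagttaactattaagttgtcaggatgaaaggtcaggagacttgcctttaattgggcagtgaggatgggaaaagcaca

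The motif of Abca1 began 147 bases before the start and lay 36 bases from the centre of the liver peak. In Abca8b it began 18 bases after the start, 14 bases from the centre of the liver peak and 7 from that of the kidney peak. The motif of Abcc4 began 205 bases before the start and 69 bases from the centre of the kidney peak. Beside Slc10a3 it lay 46, 84 and 64 bases from the centres of the liver, kidney and heart peaks. In Slc22a4 the motif began 228 bases before the start, and the motif base nearest to the kidney peak lay 2 bases past its edge. Neither CACGTT nor its reverse complement AACGTG lay in any of the 12 shared stretches. Across all 21262 promoter windows of protein-coding genes, 7.84% held CACGTG, against 9.89% of the 91 windows of transporter genes (9 windows, exact 95% interval 4.62 to 17.9%). Windows of protein-coding genes that shared bases with a liver peak held it in 39.4% of cases, those with a kidney peak in 36.5% and those with a heart peak in 35.0%. Of the 8 transporter windows that shared bases with a peak, 4 held the motif, too few to set against those shares (15.7 to 84.3%). These windows belong to Abca1, Abca8b, Abcc4 and Slc22a4, and in Slc22a4 the motif lay outside the peak. The site beside Slc10a3 is not among them, since its window belongs to Gm44504. A match is a description of the letters in a window. Most peaks here lay outside these windows, and their sequence was not analysed here.

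Liver had the most transporter genes with a peak and heart the fewest. A liver peak lay at 30 of 99 genes, or 30.3% (exact 95% interval 21.5 to 40.4%, counting error only), against 18.1% of all protein-coding genes. A kidney peak lay at 22 genes, or 22.2% (14.5 to 31.7%), against 18.0% of all. A heart peak lay at 8 genes, or 8.08% (3.55 to 15.3%), against 11.5% of all. With this rule the kidney and heart shares held the background within their intervals, and in liver the background lay below the interval. Some settings given in the closing section also put the kidney or heart background outside its interval.

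**Figure D1:**
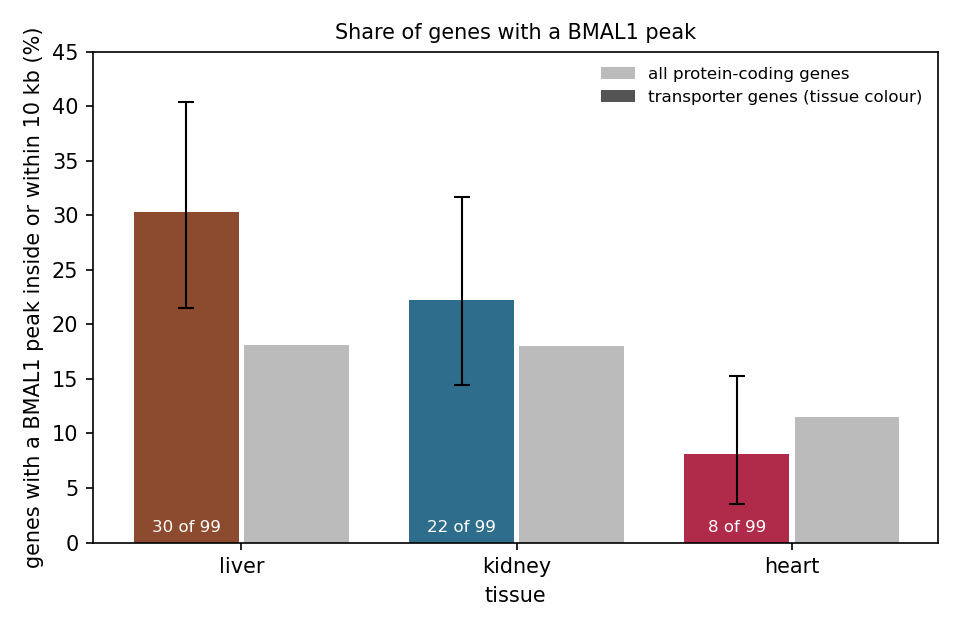
Share of genes (percent, vertical axis) with a BMAL1 peak inside the gene or within 10 kb, by tissue, for the 99 transporter genes (coloured bars, exact 95% intervals) and all 21883 protein-coding genes (grey bars). The liver bar stands at 30.3% against 18.1%, the kidney bar at 22.2% against 18.0% and the heart bar at 8.08% against 11.5%.

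Transporter genes were longer than protein-coding genes at large. The median transporter gene spanned 56.0 kb and the median protein-coding gene 17.2 kb. Transporter genes with a peak had a median of 56.4 kb and those without 50.3 kb. Over all genes these medians were 28.2 and 13.5 kb. The part of length in the counts was not tested. Per megabase searched, transporter genes held 4.24 liver peaks (exact Poisson 95% interval 2.98 to 5.84), 3.21 kidney peaks (2.13 to 4.63) and 1.15 heart peaks (0.549 to 2.11). All protein-coding genes held 3.01, 2.72 and 1.67 per megabase, within the intervals in each tissue. When peaks in the lower 50% of a list were left out, transporter genes with a peak numbered 13 in liver (13.1% against 11.0% of all genes), 9 in kidney (9.09% against 10.7%) and 4 in heart (4.04% against 7.16%). On both scales the liver value lay closer to that of other genes than the count within 10 kb did. Other rules left a wider liver gap than the upper 50% did. They gave 20.2% against 10.2% with centres inside the gene, and 27.3% against 15.5% within 5 kb. With the nearest coding gene only, liver stood at 27.3% against 13.7%.

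Across tissues, 43 of the 99 genes had a peak in at least 1 list and 56 (56.6%) had none, against 69.4% of all protein-coding genes. Peaks in 1 tissue lay at 28 genes (28.3% against 18.0% of all), in 2 tissues at 13 (13.1% against 8.31%) and in all 3 tissues at 2 (2.02% against 4.35%). Liver alone accounted for 16 genes, kidney alone for 8, heart alone for 4, and liver with kidney for 11. Liver with heart gave Slc47a1, kidney with heart gave Abca13, and the genes with peaks in all tissues were Slc10a3 and Abcc4.

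**Figure D2:**
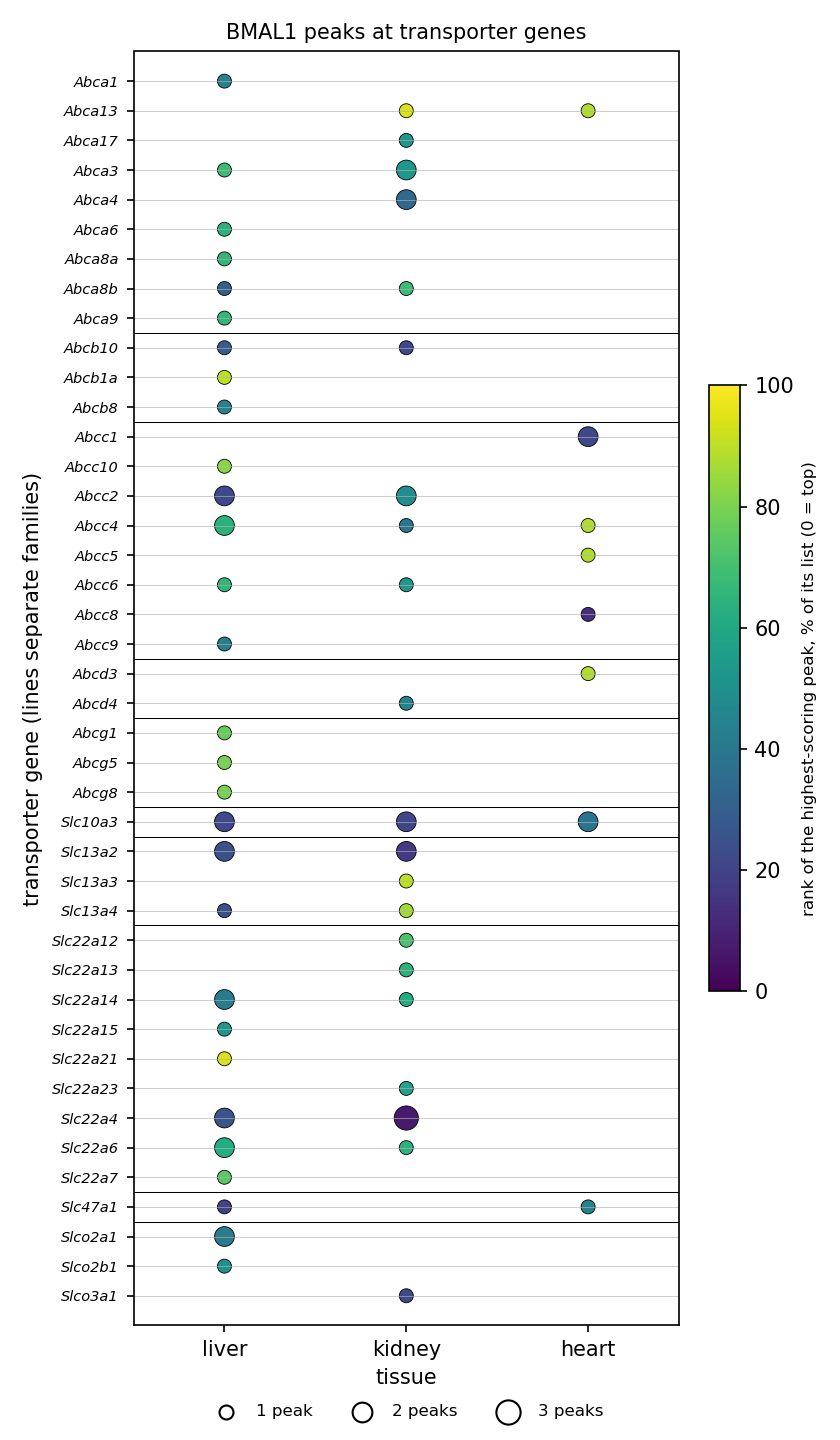
The transporter genes with a peak (rows, lines between families; 1 gene is not drawn) by tissue (columns), with dot area for the number of peaks and colour for the rank of the highest-scoring peak as a percent of its list. Slc10a3 and Abcc4 have dots in all 3 columns, and Slc22a4 has 3 kidney peaks.

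Liver peaks at transporter genes had a median score of 32, against 40 over the whole liver list. The kidney median was 23.5 against 28, and the heart median 21.5 against 25. In liver 15 of 37 peaks (40.5%, exact 95% interval 24.8 to 57.9%), in kidney 11 of 28 (39.3%, 21.5 to 59.4%) and in heart 4 of 10 (40.0%, 12.2 to 73.8%) stood in the upper 50% of their list, and each interval includes 50%. Of all 75 peaks, the kidney peak of Slc22a4 with rank 278 of 4034 reached the upper 10%. The best liver rank was 941 of 4813, at Slc47a1, and the best heart rank 328 of 2519, near Abcc8. Of the liver peaks at transporter genes, 25 (67.6%, exact 95% interval 50.2 to 82.0%) overlapped no peak of another tissue. The same held for 17 kidney peaks (60.7%, 40.6 to 78.5%) and 7 heart peaks (70.0%, 34.8 to 93.3%). The whole lists gave 66.5, 57.7 and 65.0%, inside these intervals.

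**Figure D3:**
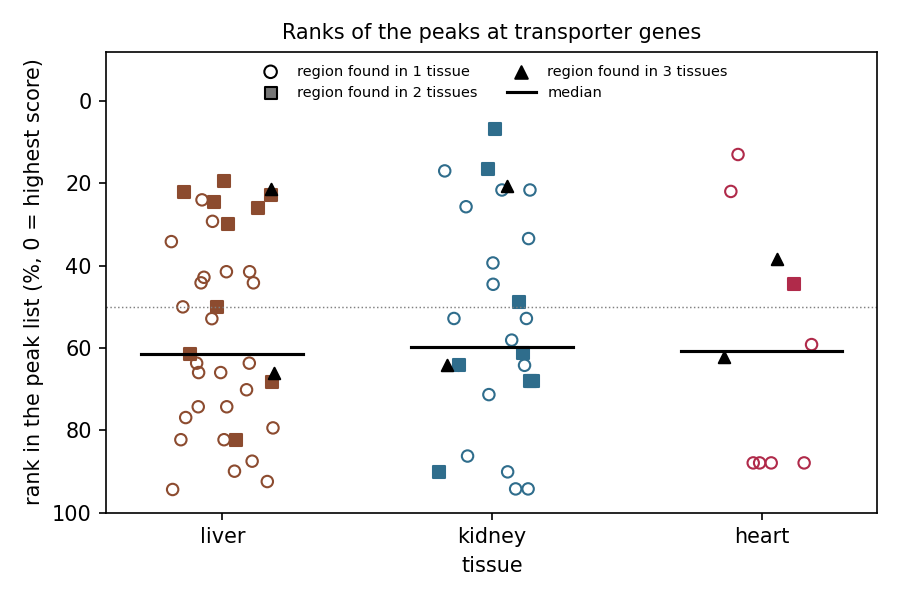
Rank of each peak at a transporter gene as a percent of its list (vertical axis, 0 is the highest score), by tissue, with symbols for the number of tissues that share the region and a line at the median. The medians lie at 61.5% in liver, 59.7% in kidney and 60.7% in heart, below the middle of each list, and horizontal scatter has no meaning.

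The Slc22a family of organic cation, anion and carnitine carriers held the most genes. A peak lay at 10 of its 25 genes: 7 in liver, 7 in kidney and none in heart. Over all protein-coding genes, 30.6% had a peak in any tissue, 18.1% in liver, 18.0% in kidney and 11.5% in heart. No family was tested against these shares. Slc22a4, which carries ergothioneine and organic cations, had 3 kidney peaks and 2 liver peaks, all inside the gene. Its kidney scores were 87, 56 and 44, with ranks 278, 686 and 1037 of 4034. The highest of them, 23.7 kb after the listed start (chr11:54004276-54004463), coincided to 2 bp with a liver peak of score 62, rank 1251 of 4813. The kidney peak of score 56 and a liver peak of score 28 lay 945 bp apart without overlap, and the kidney peak of score 44, centred 127 bp before the listed start, had its nearest liver peak at 16005 bp. So the gene had a site in both tissues and a start bound in the kidney list alone. The paralog Slc22a5, the carnitine carrier, had no peak within 10 kb in any list, and its nearest was a heart peak at 18.7 kb.

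Slc22a6, the renal organic anion transporter OAT1, had liver and kidney peaks 2.13 kb past its end, 2 bp apart, with scores of 32 and 22. The liver list thus held a peak at this renal carrier, and a second at 2.94 kb with score 19. Slc22a14 shared a liver and kidney region past its end as well, with a score of 23 in each list. Its rank was 3961 of 4813 in liver and 2474 of 4034 in kidney. Slc22a7, the organic anion transporter OAT2, had a liver peak of score 26 at 191 bp from the gene. Kidney peaks alone lay in Slc22a12, the urate transporter URAT1 (score 20, 1.46 kb after the start), in Slc22a13 (score 22) and in Slc22a23 (score 24). A further liver peak of Slc22a14, 8.53 kb outside the gene, scored 45 (rank 1997); its nearest coding gene was Acaa1b, at 3835 bp. Slc22a15 (score 37) and Slc22a21 (score 18) had a liver peak each.

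**Figure D4:**
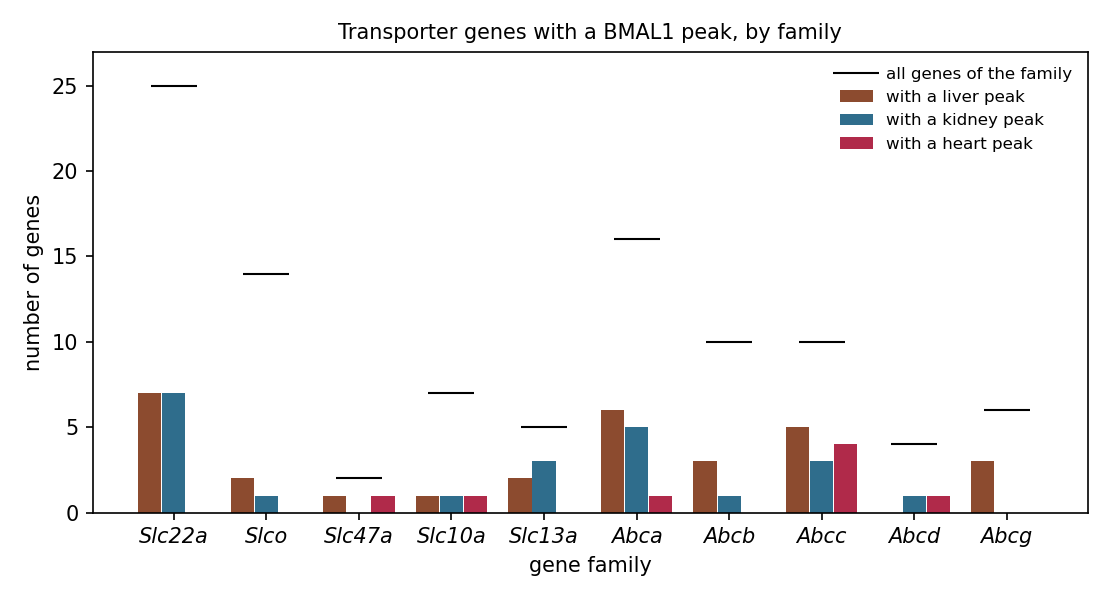
Number of genes in each of the 10 families (black marks) and of those with a liver, kidney or heart peak (bars). Slc22a has 25 genes, with liver and kidney bars at 7 each and no heart bar, and Abcc has 10 genes, with a heart bar at 4. The shares over all protein-coding genes are not drawn.

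Slc13a, the sodium-coupled sulfate and dicarboxylate carriers, had peaks at 3 of 5 genes, beside 30.6% of all protein-coding genes. At Slc13a2, the citrate and dicarboxylate carrier NaDC1 of the proximal tubule, a region before the listed start was bound in liver (chr11:78427683-78427924, 5.57 kb before, score 64, rank 1185) and kidney (5.59 kb before, score 57, rank 663). A liver peak 2.32 kb before the start (score 52) and a kidney peak 5.25 kb after it (score 14) were not shared. A score of 14 is the lowest in the kidney list. At Slc13a4, a sulfate carrier, both tissues had a peak inside the gene at different sites, 9.04 kb apart, with scores of 65 in liver (rank 1157) and 16 in kidney (rank 3480). Slc13a3, the basolateral carrier NaDC3, had a kidney peak of score 15 (rank 3635 of 4034).

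Slc47a1, the proton-coupled organic cation extruder MATE1, had a region inside the gene, within 1 kb of an end, in liver and heart but not in the kidney list. The liver peak (chr11:61377947-61378188) scored 72 and the heart peak 27 (rank 1123 of 2519), with centres 81 bp apart. The nearest kidney peak lay 162772 bp from the liver peak. Slc47a2 had no peak within 10 kb.

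Slc10a3 was the transporter gene with regions common to all tissues, 1 at each end of a gene of 4.13 kb, against 3.09% of all protein-coding genes with such a region. The region just outside the gene at chrX:74373262-74373514 scored 69 in liver, 50 in kidney and 30 in heart, with ranks 1035, 838 and 970. The region at the other end scored 30, 22 and 21 and was centred 76, 41 and 28 bp from the listed start of Ubl4a, a neighbouring gene. The table also holds Gm44504, a coding gene model that overlaps Slc10a3 and whose listed start lies at its end, so these peaks cannot be given to a single gene. Both bile acid carriers of the family, Slc10a1 of the hepatocyte and Slc10a2 of the ileum, had no peak within 10 kb. The nearest liver peaks lay 21.7 kb from Slc10a1 and 844 kb from Slc10a2.

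The Slco family, organic anion transporting polypeptides, had peaks at 3 of 14 genes, beside 30.6% of all protein-coding genes. Slco2a1, the prostaglandin transporter, had liver peaks of score 45 and 21, and the weaker was 326 bp after the listed start. Slco2b1 had a liver peak of score 39 and Slco3a1 a kidney peak of score 49, inside the gene and 97.8 kb from its nearer end. The hepatic uptake carriers Slco1a1, Slco1a4 and Slco1b2 had none, with the nearest liver peaks at 13.7, 30.8 and 88.0 kb.

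Among the ABC transporters, 25 of 46 genes had a peak in any tissue, and in the Abcc family 8 of 10, where the share over all protein-coding genes was 30.6%. The median length was 67.8 kb over the ABC genes and 75.8 kb in Abcc, against 40.2 kb over the solute carriers, of which 18 of 53 had a peak. Abcc2, the canalicular exporter MRP2 for bilirubin conjugates, had 2 regions shared by liver and kidney. The region before its start, printed above, scored 67 in liver (rank 1095 of 4813) and 28 in kidney (rank 1966 of 4034). The other, 31.1 kb into the gene (chr19:43813337-43813578), scored 68 in liver (rank 1060) and 15 in kidney (rank 3635). The kidney ranks stood at 48.7 and 90.1% of that list, and both liver ranks were within the first 22.8% of theirs. Ranks were not compared between lists, whose depth is unknown. The nearest heart peak lay 41469 bp from the second liver peak.

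Abcc4, the exporter MRP4 for cyclic nucleotides and conjugates, had peaks in all lists at 4 different sites. The kidney peak (score 33, rank 1588) was centred 133 bp before the listed start, on the stretch with CACGTG. The liver peaks (scores 31 and 23) lay 32.1 kb or more from it, and the heart peak (score 16) 153 kb from it. Abcc6, an exporter of the liver and kidney, had a liver peak inside the gene (score 30) and a kidney peak 3.26 kb outside it (score 26). That kidney peak was centred inside the neighbouring gene Nomo1, 59 bp from its listed start. Abcc10 had a liver peak of score 23, 377 bp before a listed start.

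**Figure D5:**
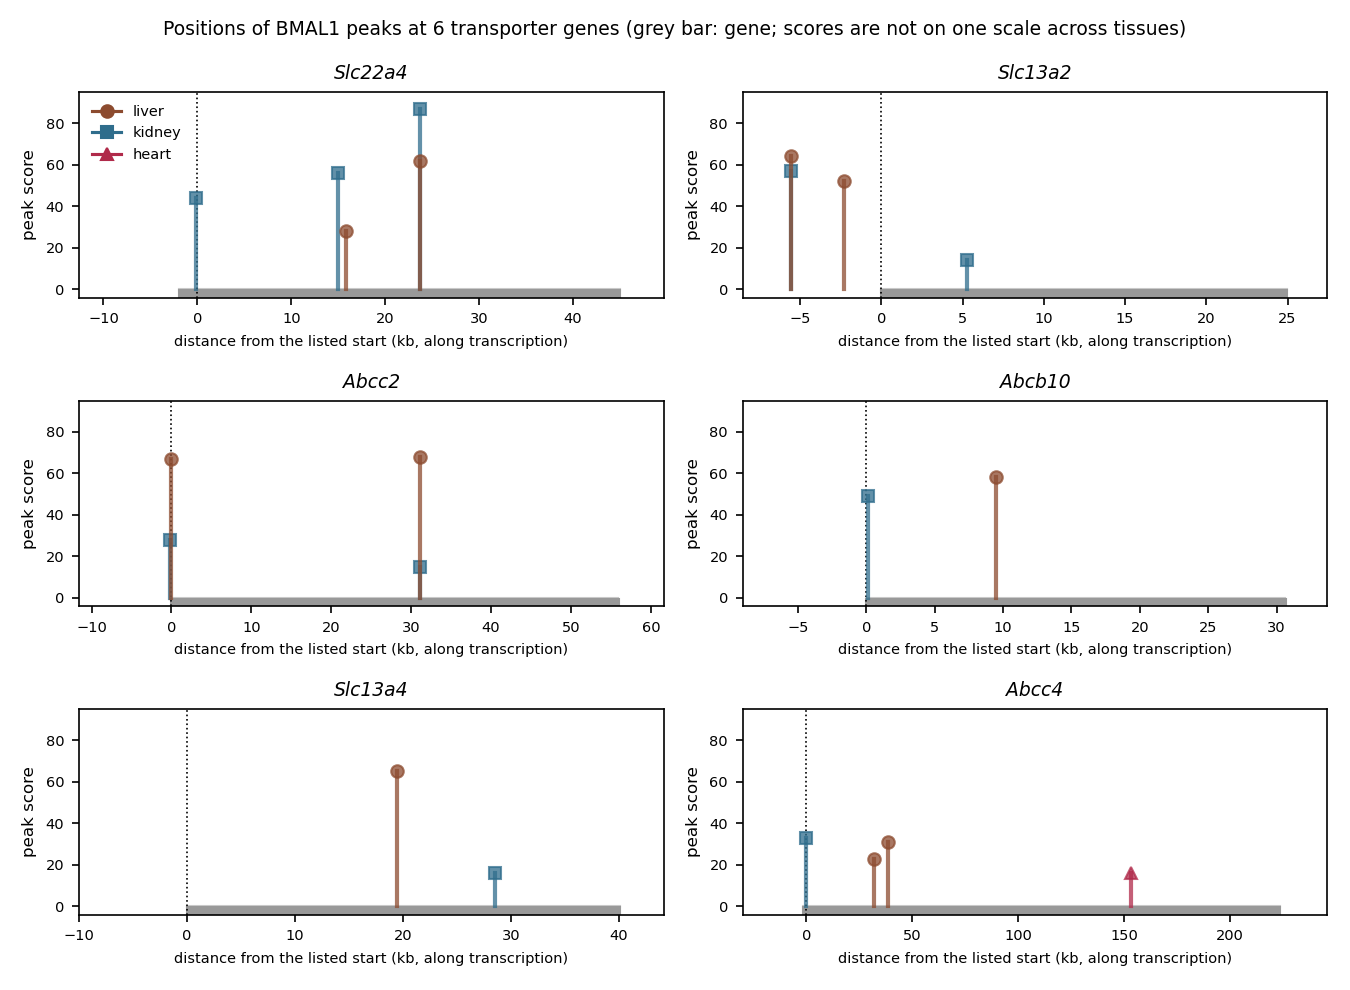
Peak positions at 6 transporter genes by distance from the listed start along transcription (kb, horizontal axis) against peak score (vertical axis; scores of different tissues are not on a common scale), with the gene as a grey bar. Slc22a4, Slc13a2 and Abcc2 have coinciding liver and kidney peaks, whereas Abcb10, Slc13a4 and Abcc4 have peaks of different tissues at different sites.

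A heart peak lay at 4 of the 10 Abcc genes and at 4 genes of other families, where the share over all protein-coding genes was 11.5%. In the upper 50% of the heart list stood the highest-scoring peaks of Abcc8, Abcc1, Slc10a3 and Slc47a1. The weaker heart peaks of Abcc1 and Slc10a3 stood below it. The Abcc family was singled out after its values were seen. Abcc1, the glutathione-conjugate exporter MRP1, had heart peaks of score 45 (rank 554 of 2519, chr16:14361454-14361651), inside the gene and 99 bp from an end, and of score 22, 16.1 kb from that end. The nearest kidney and liver peaks lay 420800 and 420837 bp from the first. The heart peak near Abcc8, which encodes the sulfonylurea receptor SUR1, scored 64 (rank 328, chr7:46100628-46100825). It lay 3.80 kb outside Abcc8 and inside Kcnj11, 226 bp from an end of that gene, which encodes the pore subunit of the same potassium channel. Abcc9, the sulfonylurea receptor SUR2 of heart muscle and vessels, had a liver peak of score 44 and no heart peak within 10 kb. Abcc4, Abcc5, Abca13 and the peroxisomal transporter gene Abcd3 had a heart peak each with a score of 16, the lowest in the heart list.

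Abca genes, which move lipids, had peaks at 9 of 16 members, beside 30.6% of all protein-coding genes. Abca1, the cholesterol and phospholipid exporter that loads apolipoprotein A-I, had a liver peak centred 108 bp before its start (score 43, rank 2127). The nearest kidney peak lay 1456088 bp away and the nearest heart peak 110637 bp away. Abca8b had a region at its start in liver (score 57, rank 1440) and kidney (score 21, rank 2742), with centres 7 bp apart. Along the Abca8b to Abca5 cluster on chromosome 11, 4 of 5 genes had a liver peak, beside 18.1% of all protein-coding genes. However, a single peak of score 30 was counted for both Abca8a and Abca9. Abca3, the surfactant lipid transporter, had a shared region 10.8 kb (liver) and 10.7 kb (kidney) after its listed start, with scores of 29 and 21. A kidney peak of score 26 lay 76 bp before the start, inside both Abca3 and Abca17. Abca4 had kidney peaks of score 37 and 22, and Abca6 a liver peak of score 31. Abca13 had a kidney peak of score 14, the lowest in the kidney list, at 194 bp before its start.

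Of the Abcb family 3 of 10 genes had a peak, near the 30.6% of all protein-coding genes. Abcb10, of the mitochondrial inner membrane, had a kidney peak 100 bp after its start (score 49, rank 873) and a liver peak 9.44 kb after it (score 58, rank 1408). The liver peak of Abcb1a, a drug efflux pump, scored 20 and lay inside the gene, 56.1 kb after its start. It was centred 128 bp from an end of Rundc3b, a gene that overlaps Abcb1a, and 260 bp before the listed start of Rundc3b. The liver peak of mitochondrial Abcb8 (score 43) lay 5.67 kb outside the gene, inside Atg9b. Abcb11, the bile salt export pump, and Abcb4, the canalicular phospholipid flippase, had no peak within 10 kb, and their nearest liver peaks lay at 43.7 and 81.4 kb. In the Abcg family, 3 of 6 genes had a liver peak and none a kidney or heart peak. The shares over all protein-coding genes were 18.1, 18.0 and 11.5% in liver, kidney and heart. Abcg5 and Abcg8, which form the sterol exporter of bile, shared a single liver peak of score 24, inside Abcg8. Abcg1 had a liver peak of score 25. Abcd4, of the lysosomal membrane, had a kidney peak of score 30.

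Genes with peaks of more than 1 tissue were counted by whether any of these peaks overlapped. A gene with an overlapping pair could also hold sites of 1 tissue, as Slc22a4 did. Of 15 transporter genes with peaks from at least 2 tissues, 10 had an overlapping pair and 5 had different sites throughout: Abcb10, Abcc4, Abcc6, Slc13a4 and Abca13. The share with different sites was 33.3% (exact 95% interval 11.8 to 61.6%), against 24.6% of the 2772 protein-coding genes with peaks from at least 2 tissues. The share over all genes lies inside the interval. The closest pairs lay from 2 bp apart at Slc22a4 and Slc22a6 to 466 kb apart at Abca13.

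Inside the transporter gene lay 23 of 37 peaks in liver, 19 of 28 in kidney and 7 of 10 in heart. The median transporter gene of 56.0 kb is itself longer than the 10 kb searched at either end. No such share was counted over all genes or whole lists, so these counts have no background beside them. Within 1 kb of an end of any protein-coding gene were 10 of the 37 liver peaks (27%, exact 95% interval 13.8 to 44.1%), 9 of 28 in kidney (32.1%, 15.9 to 52.4%) and 6 of 10 in heart (60.0%, 26.2 to 87.8%). The whole lists gave 27.2, 39.3 and 35.8%. The nearest coding gene was no transporter gene for 3 liver, 2 kidney and 2 heart peaks. Among genes with a listed start, the peak was centred within 1 kb of it for 5 of 28 liver, 8 of 23 kidney and 0 of 4 heart pairs of peak and gene. A listed start was available for 78 of the 99 transporter genes. These pairs were counted at transporter genes alone, without a share over all genes, so tissues are not compared on them.

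Lists from textbook knowledge of where the carriers act were counted next. Of 20 transporters typical of liver, 10 had a liver peak, 3 a kidney peak and 1 a heart peak. Of 20 typical of kidney, 8 had a kidney peak, 9 a liver peak and 2 a heart peak. Of 17 typical of heart, 3 had a heart peak, 10 a liver peak and 4 a kidney peak. Over all protein-coding genes the shares were 18.1% for liver, 18.0% for kidney and 11.5% for heart, and the peak lists differ in length. A single liver peak was counted for both Abcg5 and Abcg8 in the first set, and another for both Abca8a and Abca9 in the set typical of heart. The sets share genes, were chosen by hand with earlier results of these data known, and were not tested. Of 12 genes on the bile acid and canalicular route, 4 had a liver peak (Abcc2, Abcc4, Abcg5 and Abcg8). The other 8 had none in any tissue, where 69.4% of all protein-coding genes had none. The single liver peak of Abcg5 and Abcg8 counts for both genes in this set and in the next. Of 9 exporters of cholesterol and phospholipid, 5 had a liver peak and 1, Abca3, also a kidney peak. Among 8 mitochondrial and peroxisomal transporters, liver and kidney peaks lay at 2 each and a heart peak at 1; the kidney count includes Abcd4, which acts in lysosomes.

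Of 25 related genes outside the symbol rule, such as the nuclear receptors that regulate transporters, 11 had a liver peak, 7 a kidney peak and 2 a heart peak, beside 18.1, 18.0 and 11.5% of all protein-coding genes. The genes were picked by hand with earlier results of these data known, and were not tested. Abcf1, an ABC protein without membrane-spanning segments, had a region common to all tissues. It ranked 179 in liver (score 142), 108 in kidney (score 129) and 56 in heart (score 146). Hnf4a (140 and 97) and Ppara (152 and 86) had a region shared by liver and kidney. In liver both scores exceeded the highest transporter score of 72, and in kidney that of Hnf4a exceeded the 87 of Slc22a4. The liver list alone held peaks at Nr1i2, the xenobiotic receptor PXR (score 53), and at Nr0b2, the bile acid feedback repressor SHP (3 peaks, highest score 72). Slc51a, a basolateral bile acid exporter subunit, had 2 kidney peaks, the higher with a score of 72.

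The 10 kb limit set which genes counted. The farthest peaks inside it lay 8.53 kb from Slc22a14, 7.38 kb from Abcg5 and 7.10 kb from Abca9, all in liver. Just outside were liver peaks 12.2 kb from Slc22a17, 13.7 kb from Abcc12 and Slco1a1 and 14.3 kb from Abca14. Over the 56 genes without a peak the median distance to the nearest one was 141 kb in liver, 164 kb in kidney and 314 kb in heart. Of the textbook kidney transporters, Slc22a8, Slc22a2, Slc22a5, Slco4c1, Slco1a6, Slc13a1, Slc10a2, Abcb1b and Abcg2 were without a peak in any list.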

How the data were processed

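Peak lists with a score were deposited by the authors, 1 per tissue, made from all ChIP and input replicates together, per the labels. The submitters' processing notes name Bowtie2, SAMtools and HOMER and the build mm10; for their settings, and for what the score measures, nothing is stated in the labels or notes used here. Genes came from RefSeq GRCm38.p6, the assembly of mm10. Peaks were assigned by their centre within 10 kb, and overlapping peaks (1 bp or more) from separate tissues were merged (Python 3.11.15, pandas 2.3.3). A peak in reach of several genes counted for each. Shares have exact Clopper-Pearson 95% intervals from scipy 1.17.1, which cover counting error only. No tests were made, because each tissue is 1 pooled list without a known depth. Assignment and merging were tested on simulated data. Named were genes with a common region, the 10 genes with the highest-scoring peak per tissue, genes with 3 or more peaks in a tissue, and genes of the textbook lists. Other genes with a peak, their neighbours and the distances of genes without a peak were chosen after their values were seen. The genes and lists were chosen with earlier results of these data known. Values of 1 transporter gene are not reported here, though counts include it. E-boxes planned for whole peaks were read in RefSeq promoter windows instead. Alternatives were other windows, thresholds and overlap rules.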

Additional observations from a re-analysis of the deposited data

How the results depend on the processing

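Assigning peaks within 50 kb raised the number of genes with a liver peak to 54, with a kidney peak to 43 and with a heart peak to 15 (54.5, 43.4 and 15.2% against 34.0, 33.1 and 22.7% of all genes). For 43 of 99 genes the exact 95% interval is 33.5 to 53.8%, so the kidney background at 50 kb lay below it. The 50 kb window raised the genes in all tissues to 8, lowered those with none to 32, and gave 5 common regions at 4 genes. The upper 50% of each list left 13, 9 and 4 genes in liver, kidney and heart, 1 in all tissues, 13 in 1 tissue and 1 common region. The top 2000 peaks left 10, 9 and 4 genes, 1 in all tissues, 10 in 1 tissue and 1 common region. The shares were then 10.1, 9.09 and 4.04% against 9.77, 10.7 and 10.6% of all genes. For 4 of 99 genes the exact 95% interval is 1.11 to 10.0%, so the heart background lay above it. Counting centres inside genes, or the 89 genes that overlap no other coding gene, left 1 gene in all tissues. A 5 kb boundary gave 51.4% of liver and 60.7% of kidney peaks near a gene end, against 43.5 and 55.1% of the whole lists. The upper 50% put 100% of 4 heart peaks within 1 kb, against 50.7% of all heart peaks kept. Each of the other windows, thresholds and overlap rules that were run kept its count within 1.5 times or its share within the 95% interval. That criterion looks at the transporter genes alone, and the shares over all genes moved as well. With the nearest coding gene only, 27.3, 21.2 and 7.07% in liver, kidney and heart stood against 13.7, 13.3 and 8.9% of all genes. With centres inside the gene these were 20.2, 16.2 and 6.06% against 10.2, 9.67 and 6.83%. The motif search in whole peaks was not run, since no genome sequence was used here. No paired analysis was possible because each list pools its replicates, and for the same reason none could be left out. Counting CACGTT and AACGTG with CACGTG, an alternative chosen after seeing the data, gave 12.1% of transporter windows. The unknown depth limits what a missing peak shows.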
